A study of Mus musculus with 20 samples.

Results

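The comparison described here is between the chromatin that was open on day 1 and the chromatin that was open on day 2 of adipocyte differentiation in 3T3-L1 cells, a mouse preadipocyte line. Its members are all peaks of the DNase I hypersensitive site (DHS) lists of those days: 35389 peaks on day 1 and 25097 on day 2, or 60486 of the 284878 peaks in the 19 lists of the series. Merging overlapping peaks gave 40146 union regions. A peak was called kept when it overlapped a peak of the other day by at least 1 bp. Day 1 peaks without such an overlap were called closed, and day 2 peaks without one were called new. These words describe presence in a list, and no reading of how open a site was is attached to a peak.

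Both groups were unmodified 3T3-L1 cells labelled as an intermediate stage. Per the labels, cells were induced at day 0, when they had been confluent for some time, with fetal bovine serum, the glucocorticoid dexamethasone, insulin and the phosphodiesterase inhibitor 3-isobutyl-1-methylxanthine. Day 1 cells were in that cocktail. Day 2 is the time at which the medium was replaced by one with fetal bovine serum and insulin, and the labels do not say whether nuclei were taken before or after the change. Nuclei were digested lightly with DNase I, and small fragments with a cut at each end were sequenced. The lists compared with these peaks came from the same line: chromatin immunoprecipitation (ChIP-seq) of C/EBPbeta at day 0, 2 hours, 4 hours and day 2, C/EBPdelta at day 0 and 4 hours, GR, Stat5a and RXR at 4 hours, PPARgamma on day 2 and day 6 (labelled mature adipocyte), and RNA polymerase II at day 0 and 4 hours, besides the other DHS lists. Every group held 1 library, so no difference could be set against a spread between replicates. The lists hold positions only, and the labelled cell type was not checked against marker genes.

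DNase I cuts preferentially where nucleosomes are displaced, so hypersensitive sites mark promoters, enhancers and other regulatory DNA. C/EBPbeta is a leucine zipper factor that is active soon after induction and helps to switch on the genes of PPARgamma and C/EBPalpha. PPARgamma is the nuclear receptor that directs the adipocyte programme, and it binds DNA as a pair with RXR. GR is the receptor for dexamethasone, and Stat5a is a signal-activated factor of the same early phase.

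Most of what was open on day 2 had been open the day before. Of the 25097 day 2 peaks, 19571 (78.0%, exact 95% interval 77.5 to 78.5) were already in the day 1 list, and 5526 (22.0%, the share new over the whole list) were new. Of the 35389 day 1 peaks, 20161 (57.0%, 56.5 to 57.5) were kept and 15228 (43.0%, the share closed over the whole list) were closed. Intervals here and below are Clopper-Pearson intervals that cover counting over peaks of these libraries only. Merged across the days, 19395 regions had peaks of both, 15225 had only day 1 peaks and 5526 only day 2 peaks. By length, the lists covered 19.5 and 17.3 Mb and shared 11.6 Mb, which is 59.3% of the day 1 bases and 67.0% of the day 2 bases.

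The larger number of closed than new peaks went with the longer day 1 list. With the day 1 list shortened to its 25097 widest peaks, 8118 day 1 peaks (32.3%, 31.8 to 32.9) were closed and 8364 day 2 peaks (33.3%, 32.7 to 33.9) were new. Equal length makes these counts nearly equal by construction. The 10292 peaks dropped for this were 422 bp wide or less, as were some that stayed at exactly that width. Of the dropped peaks, 30.9% (30.0 to 31.8) were shared with day 2, and 2838 of the 8364 new peaks at equal length lay over one of them. The other 5526 are those that were new with all peaks. Whether chromatin closed more than it opened between the days therefore cannot be told apart from list length.

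**Figure D1:**
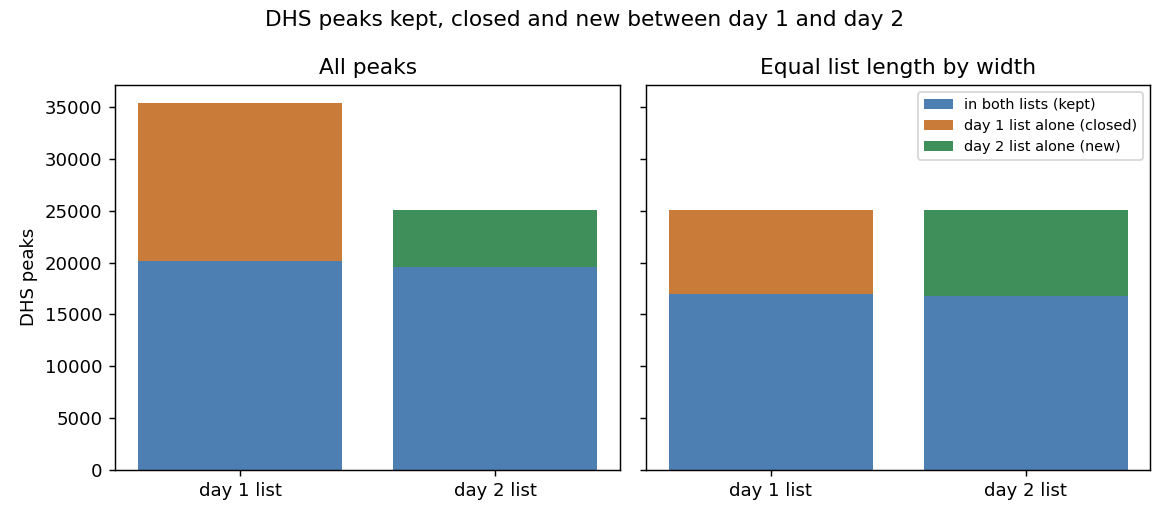
Bars give the number of DHS peaks (vertical axis) in the day 1 and day 2 lists, split into those in both lists and those in one alone. On the left, with all peaks, 15228 peaks were closed and 5526 new; on the right, with both lists at 25097 peaks, these were 8118 and 8364.

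Kept peaks were the wide ones. The median width was 583 bp for kept peaks of day 1 and 431.5 bp for closed peaks, and 651 bp for kept peaks of day 2 and 498 bp for new peaks. The share of day 1 peaks kept was 28.5% in the narrowest of 5 width classes of about equal number (150 to 383 bp), 55.1% in the middle class and 88.9% in the widest (690 to 5962 bp). For day 2 the shares already open were 53.8%, 80.7% and 94.1% in the like classes of its own list. A wider peak also has more room to overlap, and with every peak set to 200 bp 50.9% of day 1 peaks were kept. The lists differed in their shortest peaks: 252 peaks of day 1 were exactly 150 bp wide, its minimum, and 373 peaks of day 2 were at its minimum of 251 bp. The day 6 DHS list has the 150 bp minimum of day 1. Whether the lists of day 1 and day 2 were called with the same settings is not given in the sources used here, and a difference in calling cannot be told apart from one between the days. The 1504 day 1 peaks under 251 bp made up 4.25% of that list, and without them 58.4% of day 1 peaks were kept.

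Where a peak was kept, its place was nearly the same. In 18540 cases 1 day 1 peak matched 1 day 2 peak, which was 92.0% of kept day 1 peaks. The middles of such a pair lay a median of 40.5 bp apart (quartiles 18.5 and 77.5 bp), and in the median pair the narrower peak lay wholly inside the wider. Day 2 peaks were the wider in 68.6% of pairs, with a median width of 645 bp against 586 bp. A single day 2 peak joined more than 1 day 1 peak in 724 cases, and the reverse was seen in 175.

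Few peaks were close to the limit for sharing. The overlap was 10 bp or less for 22 kept peaks of day 1, and 19 closed peaks lay within 10 bp of a day 2 peak without overlapping it. For day 2 the like numbers were 5 and 10. Closed peaks lay a median of 17.8 kb from the nearest day 2 peak, and new peaks 4.73 kb from the nearest day 1 peak. At equal list length, where both lists offer the same number of neighbours, these distances were 18.7 and 8.59 kb. New peaks thus lay nearer to chromatin of the other list than closed peaks did, and 17.2% of them were within 500 bp of a day 1 peak (12.2% at equal length), against 5.05% of closed peaks (4.62%).

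The history of the classes differed. Kept peaks of day 1 were in the 4 hours DHS list in 84.5% of cases (84.0 to 85.0), closed peaks in 52.2% (51.4 to 53.0) and new peaks in 19.1% (18.1 to 20.2), where 70.6% of all day 1 peaks and 70.4% of all day 2 peaks were. Before induction, on day 0, the shares were 41.5% for kept, 7.93% for closed and 0.760% for new peaks. On that day 27.0% of all day 1 peaks and 32.8% of all day 2 peaks were listed. The 2 hours list held 34.9%, 9.55% and 1.56% of kept, closed and new peaks, and 24.0% and 27.8% of all peaks of day 1 and day 2. With both lists at equal length the 4 hours shares of kept, closed and new peaks were 89.0%, 62.5% and 32.7%. The day 0 shares were then 47.1%, 11.0% and 3.92%, and the 2 hours shares 39.9%, 14.3% and 3.35%. The order of the classes stayed, while the day 0, 2 hours and 4 hours shares of new peaks each moved by more than 1.5 times.

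New peaks were for the most part at sites that none of the earlier DHS lists held. The DHS lists of day 0 and 2 hours are short (9989 and 9055 peaks), so absence from them does not show that a site was closed. With the ChIP-seq lists counted as well, 28.4% of new peaks were in none of the 17 other lists. Of the 5526 new peaks, 19.9% had been in the list of day 0, 2 hours or 4 hours and were then missing from day 1, and 75.1% (4148 peaks) were in no DHS list but that of day 2. Among closed peaks 54.0% had been open at one of the 3 earlier times, and 36.3% were in the 4 hours list besides day 1 and in no other. A further 44.5% (6782 peaks) were in the day 1 list alone. Of kept day 1 peaks, 20.6% were in all 6 DHS lists and 12.7% in none but those of day 1 and day 2.

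Neither class of changing peaks was often open on day 6. The day 6 list held 49.2% (48.5 to 49.9) of kept day 1 peaks, but 6.21% (5.83 to 6.60) of closed and 6.24% (5.62 to 6.91) of new peaks. Over all day 1 peaks the share was 30.7%, and over all day 2 peaks 40.3%. The intervals of closed and new peaks overlapped with all peaks. With lists of equal length new peaks were at 10.2% (9.60 to 10.9) and closed peaks at 8.40% (7.81 to 9.03), a difference of 1.85 points (0.958 to 2.73), so this comparison moved with list length. The day 6 list is short (11936 peaks), so absence from it does not show that a site was closed. For the closed peaks, the 945 listed on day 6 had been left out on day 2 and listed again.

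**Figure D2:**
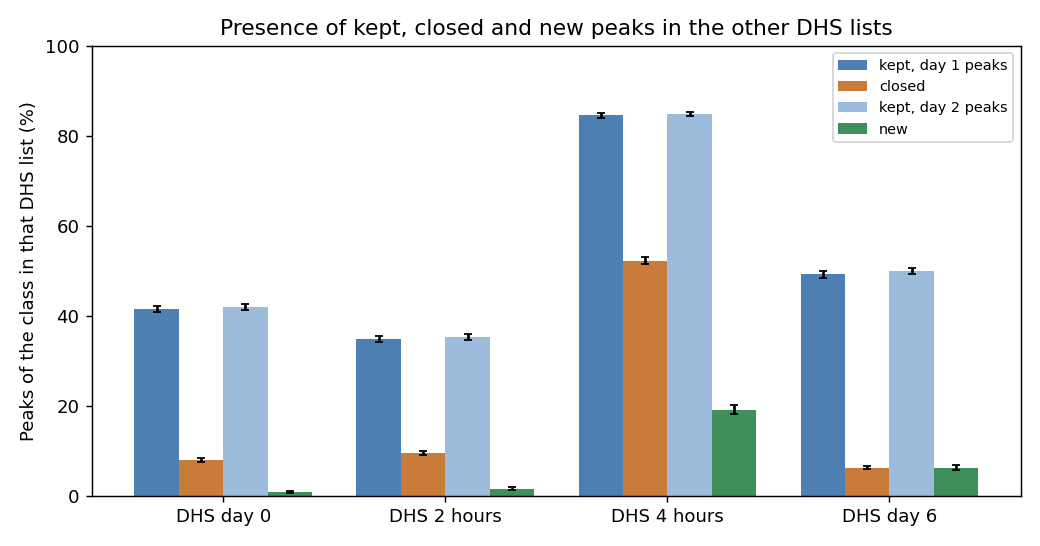
The vertical axis gives the percentage of each class (colours) that overlaps a peak of the DHS list named on the horizontal axis, with exact 95% intervals over peaks. Kept peaks lead at every time, closed peaks reach 52.2% at 4 hours, and new peaks stay at 19.1% or less.

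The C/EBPbeta list of 4 hours held more of the closed than of the new peaks. C/EBPbeta had been at 4917 closed peaks (32.3%, 31.5 to 33.0) and at 1478 new peaks (26.7%, 25.6 to 27.9), a difference of -5.54 percentage points for new minus closed (Newcombe 95% interval -6.91 to -4.15). Kept peaks held it most often, in 42.3% of day 1 peaks and 43.3% of day 2 peaks. Kept peaks are also the wider ones, and at like width closed peaks stood above kept day 1 peaks in the widest classes, as given further on. The level over all peaks was 38.0% for day 1 and 39.6% for day 2. At equal list length it was at 37.9% of closed and 29.6% of new peaks. With only the peaks wider than the median of their own list, new minus closed was -2.53 points (-4.61 to -0.428). In that setting the classes were remade from the peaks left, so a peak whose partner was left out counts as closed or new.

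By day 2 that order was reversed. The day 2 C/EBPbeta list held 2182 new peaks (39.5%, 38.2 to 40.8) and 2205 closed peaks (14.5%, 13.9 to 15.0), a difference of 25.0 points (23.6 to 26.4). Over all day 1 peaks the share was 25.5%, and over all day 2 peaks 35.7%. The share at kept day 2 peaks was 34.7%, and kept minus new was -4.81 points (-6.27 to -3.37). At equal list length the shares were 37.5% of new, 16.6% of closed and 34.9% of kept day 2 peaks. This ChIP-seq list and the DHS list that separates closed from kept peaks are of the same day.

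Where C/EBPbeta was bound at 4 hours, whether it was still listed on day 2 went with the class. It was still there at 74.0% (73.1 to 74.9) of 8534 kept day 1 peaks, at 41.8% (40.4 to 43.1) of 4917 closed peaks and at 84.8% (82.8 to 86.6) of 1478 new peaks. Over all peaks with C/EBPbeta at 4 hours the share was 62.2% for day 1 and 75.9% for day 2. Closed peaks thus include 2053 sites that carried C/EBPbeta at both times but were in the DHS list of day 1 and not of day 2. Read the other way, 93.1% of the closed peaks with C/EBPbeta on day 2 had it at 4 hours, as did 92.8% of kept day 1 peaks, whereas 57.4% (55.3 to 59.5) of new peaks did. Over all such peaks this was 92.9% for day 1 and 84.2% for day 2. Of all new peaks, 1253 had C/EBPbeta at 4 hours and on day 2, 225 at 4 hours alone and 929 on day 2 alone.

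As a ratio, the gap between new and closed peaks was widest for PPARgamma of day 2 among the 4 lists. The day 2 PPARgamma list held 749 new peaks (13.6%, 12.7 to 14.5), 1630 kept day 1 peaks (8.08%, 7.71 to 8.47) and 84 closed peaks (0.552%, 0.440 to 0.682). The difference of new minus closed was 13.0 points (12.1 to 13.9). Over all day 1 peaks the share was 4.84%, and over all day 2 peaks 9.42%. At equal list length the shares were 11.4% of new, 8.32% of kept day 1 and 0.579% of closed peaks. With only the peaks wider than the median of their own list, the shares were 21.2% of new and 1.80% of closed peaks. The ratio was smaller there, but the classes had been remade from the peaks left. Closed peaks in that setting include wide day 1 peaks over a day 2 peak that was left out. Among closed peaks of the full lists the share was at most 1.08% in any width class. Put from the day 1 side, 95.1% (94.0 to 96.1) of the 1714 day 1 peaks with PPARgamma on day 2 were kept, against 55.0% (54.5 to 55.6) of the 33675 without it. The PPARgamma list of day 2 is of the same day as the DHS list that decides whether a day 1 peak is kept. Day 1 peaks with it were also wider, with a median of 592.5 bp against 504 bp.

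The PPARgamma list of day 6 showed the same order, and it is of a later day than either DHS list. It held 1028 new peaks (18.6%, 17.6 to 19.7), 2192 kept day 1 peaks (10.9%) and 229 closed peaks (1.50%, 1.32 to 1.71). Over all day 1 peaks the share was 6.84%, and over all day 2 peaks 12.6%. The difference of new minus closed was 17.1 points (16.1 to 18.2), and at equal list length the shares were 15.9% of new and 1.59% of closed peaks. With only the wider peaks, and the classes remade from them, they were 25.8% and 3.10%. Of the new peaks with PPARgamma on day 6, 55.0% had it on day 2 as well, as did 53.0% of such kept day 1 peaks and 20.5% (15.5 to 26.3) of such closed peaks. The day 6 DHS list held 59.4% of kept day 1 peaks with PPARgamma of that day and 22.2% (19.7 to 24.8) of new peaks with it, so most of these new peaks carried PPARgamma on day 6 and were not in that day's DHS list.

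**Figure D3:**
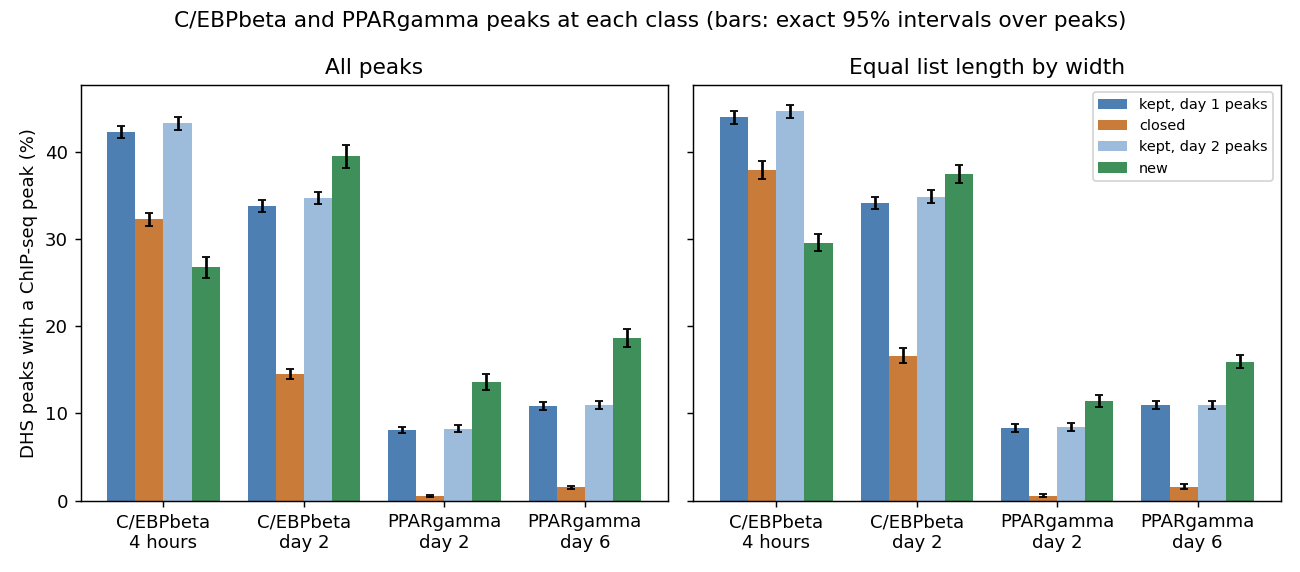
Bars give the percentage of each class of DHS peaks (vertical axis) that overlaps a peak of the ChIP-seq list on the horizontal axis, with exact 95% intervals over peaks, for all peaks (left) and at equal list length by width (right). For C/EBPbeta at 4 hours closed peaks stand above new ones (32.3% and 26.7%), and for the other 3 lists new peaks stand above closed ones in both panels.

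The order of closed and new peaks was the same among peaks of like width. The widths of both lists together were divided into 5 classes of about equal number, and closed and new peaks were compared within each class. C/EBPbeta of 4 hours was at more closed than new peaks in each of the 5, from 25.5% against 19.9% in the narrowest to 50.2% against 28.2% in the widest. C/EBPbeta of day 2 was at more new than closed peaks in each, from 24.3% against 11.9% to 51.0% against 18.4% in the widest. For PPARgamma of day 2 the share of new peaks went from 6.05% in the narrowest class to 30.8% in the widest, while closed peaks held between 0.515% and 1.08%. PPARgamma of day 6 was at 9.87% to 33.3% of new and 1.39% to 1.76% of closed peaks.

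The place of kept day 1 peaks in that order did change with width. C/EBPbeta of 4 hours was at more kept day 1 than closed peaks in the narrowest class (33.5% against 25.5%). In the fourth class it was at 43.4% (42.0 to 44.8) of kept day 1 and 47.7% (44.9 to 50.6) of closed peaks, and in the widest at 48.7% and 50.2%, with overlapping intervals. In the narrowest class PPARgamma of day 2 was at 6.83% of kept day 1 and 6.05% of new peaks, and PPARgamma of day 6 at 10.5% and 9.87%. C/EBPbeta of day 2 was there at 31.9% of kept day 1 and 24.3% of new peaks. Kept day 2 peaks, which are from the same list as new peaks, were lower in that class. They held PPARgamma of day 2 in 1.15%, PPARgamma of day 6 in 2.75% and C/EBPbeta of day 2 in 22.0% of cases. For C/EBPbeta of day 2 the intervals of kept day 2 and new peaks overlapped there. For these lists new peaks stood above kept day 2 peaks in every width class. Counting a ChIP-seq peak in the middle 200 bp of the DHS peak alone gave 13.4% of new and 0.506% of closed peaks for PPARgamma of day 2.

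**Figure D4:**
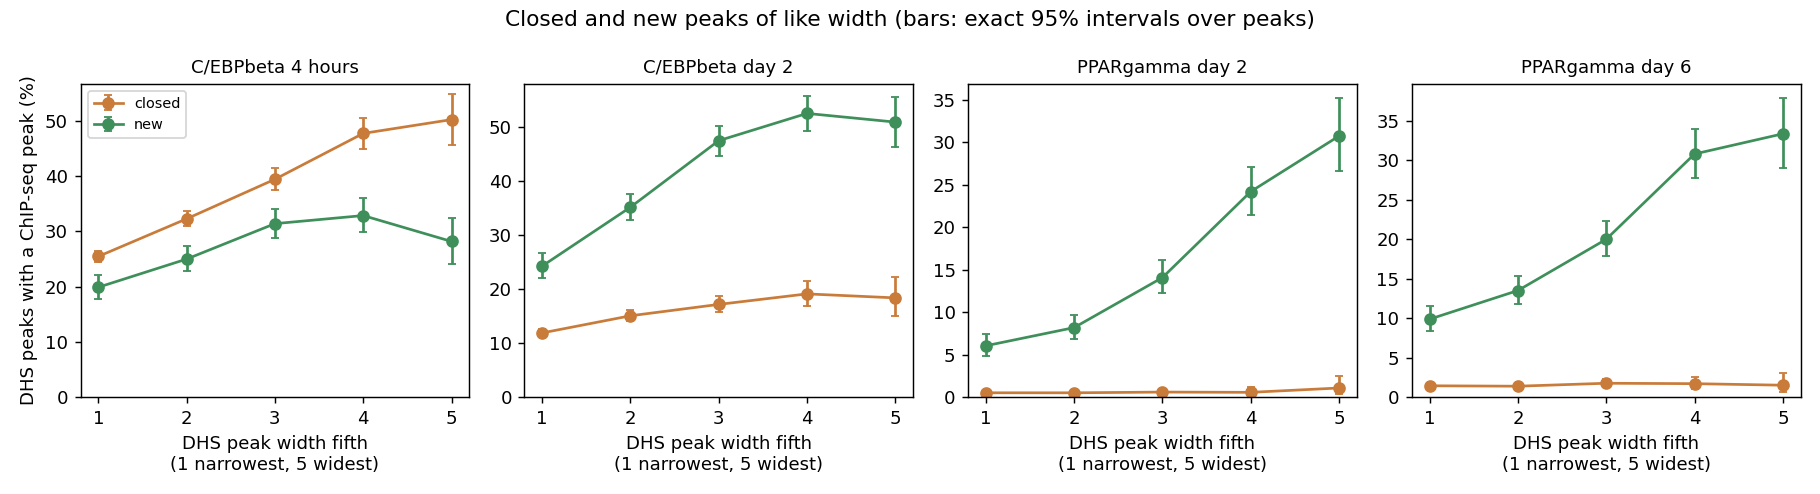
Each panel gives, for 1 ChIP-seq list, the percentage of closed and new DHS peaks that overlap it (vertical axis, with its own scale in each panel) in 5 classes of DHS peak width (horizontal axis), with exact 95% intervals over peaks. Closed peaks lie above new ones in the first panel and below them in the other 3, in each class of width.

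The combinations of the 4 lists set the classes apart further. None of the 4 was at 65.9% of closed, 52.2% of kept day 1 and 48.8% of new peaks. C/EBPbeta of 4 hours alone was at 18.5% of closed peaks, 10.2% of kept day 1 peaks and 3.84% of new peaks. C/EBPbeta of day 2 alone was at 0.893% of closed, 1.45% of kept day 1 and 9.08% of new peaks. The set of C/EBPbeta of day 2 and PPARgamma of both days, with no C/EBPbeta at 4 hours, was at 4.38% of new peaks (242 peaks), 0.536% of kept day 1 peaks and 0.0328% of closed peaks (5 peaks). All 4 lists were at 4.04% of kept day 1, 2.90% of new and 0.125% of closed peaks. Day 1 peaks were kept in 51.2% of cases with none of the 4 lists, 47.6% with 1, 71.1% with 2, 93.5% with 3 and 97.7% (96.5 to 98.6) with all 4. Median width of these day 1 peaks went from 485 bp with none to 628 bp with all 4. The day 2 lists of C/EBPbeta and PPARgamma are of the same day as the DHS list that decides whether a day 1 peak is kept. Day 2 peaks showed no such rise. They were already open on day 1 in 78.8% of cases with none of the 4 lists, 73.6% with 1, 79.8% with 2, 70.4% with 3 and 83.6% with all 4.

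By count, C/EBPbeta of day 2 accompanied PPARgamma at most sites of both kept and new peaks. Of the new peaks with PPARgamma on day 2, 71.0% (67.6 to 74.3, n = 749) had C/EBPbeta of that day, and of the kept day 1 peaks 79.2% (77.1 to 81.1, n = 1630). Over all peaks with PPARgamma on day 2 this was 77.8% for day 1 and 77.1% for day 2, above the share at new peaks. C/EBPbeta of 4 hours had been at 30.2% (26.9 to 33.6) of those new peaks and at 75.2% (73.0 to 77.2) of those kept peaks, with 74.3% and 61.4% over all such peaks of day 1 and day 2. Of the 84 closed peaks with PPARgamma on day 2, 51.2% (40.0 to 62.3) had C/EBPbeta of day 2.

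Seen from the factor lists, far more PPARgamma peaks overlapped the day 2 DHS list alone than the day 1 list alone. Of the 3168 PPARgamma peaks of day 2, 50.5% overlapped both DHS lists, 23.5% the day 2 list alone, 2.56% the day 1 list alone and 23.5% neither. Of the 5493 of day 6, the shares were 38.7%, 18.1%, 3.70% and 39.5%. The C/EBPbeta peaks of 4 hours showed the opposite balance, since 16.3% of the 29957 overlapped a day 1 peak only and 5.28% a day 2 peak only. For the 21486 C/EBPbeta peaks of day 2 these were 10.2% and 10.8%. The day 1 DHS list is the longer of the 2.

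**Figure D5:**
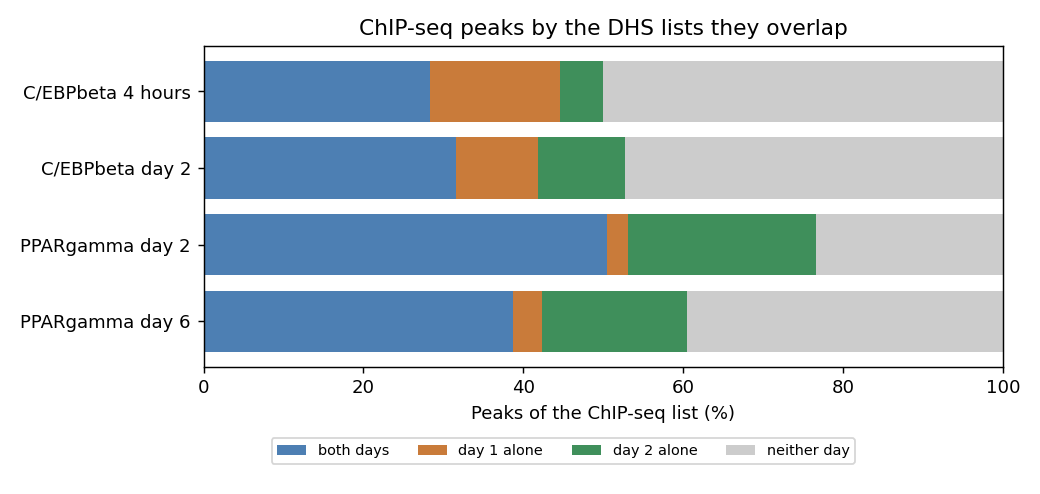
Each bar divides the peaks of 1 ChIP-seq list (percentage, horizontal axis) by whether they overlap the DHS lists of both days, day 1 alone, day 2 alone or neither. The share with day 2 alone is 23.5% for PPARgamma of day 2 and 5.28% for C/EBPbeta of 4 hours.

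Where a factor peak was present, its distance from the middle of the DHS peak differed by factor and class. The distance between the middles had a median of 45.5 bp for C/EBPbeta of day 2 at new peaks, 50.5 bp at closed peaks and 61 bp at kept day 1 peaks, which are wider. For PPARgamma of day 2 the medians were 73.5 bp at new, 84 bp at kept day 1 and 89.5 bp at closed peaks, the last over 84 peaks. PPARgamma peaks lay within 100 bp of the middle at 64.1% (60.5 to 67.5) of such new peaks and 54.8% (43.5 to 65.7) of such closed peaks. For closed peaks the upper quartile of this distance was 267 bp. PPARgamma of day 6 lay farther out at closed peaks, with a median of 116.5 bp and 44.5% (38.0 to 51.2) within 100 bp, against 74.25 bp and 61.6% (58.5 to 64.6) at new peaks.

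GR, Stat5a and RXR of 4 hours were thinnest at new peaks. GR, which the cocktail activates through dexamethasone, was at 11.2% (10.8 to 11.7) of kept day 1, 5.98% (5.60 to 6.36) of closed and 2.33% (1.95 to 2.77) of new peaks. Over all day 1 peaks GR was at 8.97%, and over all day 2 peaks at 9.43%. Stat5a was at 11.2%, 8.14% and 3.94% of kept, closed and new peaks, and at 9.86% and 9.82% of all peaks of the days. RXR was at 6.48%, 2.09% and 1.66%, and at 4.59% and 5.57% of all peaks. The difference of new minus closed was -0.423 points for RXR, with an interval (-0.811 to 0.00684) that reached 0, whereas at equal list length it was -0.596 (-1.08 to -0.121). C/EBPdelta, the relative of C/EBPbeta, was at 18.5% of closed and 20.5% of new peaks at 4 hours (25.4% and 29.0% of all peaks of the days). New minus closed was 2.02 points (0.803 to 3.26) for C/EBPdelta of 4 hours. At equal list length the shares were 22.3% of closed and 21.9% of new peaks. The difference was then -0.392 points, with an interval (-1.66 to 0.874) that spans 0, so no order of the 2 classes held there.

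The C/EBP lists from before and just after induction gave the order of the 4 hours C/EBPbeta list. C/EBPbeta of day 0 was at 35.3% of kept day 1, 22.1% of closed and 14.6% of new peaks, where 29.6% of all day 1 and 31.2% of all day 2 peaks held it. C/EBPbeta of 2 hours was at 33.7%, 22.1% and 16.8%, with 28.7% and 30.6% over all peaks. C/EBPdelta of day 0 was at 8.32% of kept day 1 peaks, with 5.62% and 7.02% over all peaks. It was at 2.05% (1.83 to 2.29) of closed and 1.81% (1.47 to 2.20) of new peaks, whose intervals overlapped.

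RNA polymerase II, which marks transcribed genes and their starts, lay mainly at kept peaks. On day 0 it was at 36.6% (36.0 to 37.3) of kept day 1 peaks, 9.20% of closed and 7.87% of new peaks. The levels over all peaks were 24.8% for day 1 and 30.4% for day 2. At 4 hours it was at 33.2%, 7.18% and 10.8%, with 22.0% and 28.4% over all peaks. Closed peaks that were listed again on day 6 held polymerase of day 0 in 35.2% of cases (n = 945), against 7.48% of the other closed peaks (n = 14283). They were also wider, with a median of 495 bp against 427 bp. Kept day 1 peaks were split in the same way, at 59.1% of those listed on day 6 (n = 9919) and 14.9% of the others (n = 10242).

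Factor shares were also compared by whether a peak was in the DHS list of 4 hours or of day 6. Closed peaks listed at 4 hours (n = 7953) held C/EBPbeta of 4 hours in 43.0% and GR in 9.05% of cases, and closed peaks not listed then (n = 7275) in 20.5% and 2.61%. Kept day 1 peaks held C/EBPbeta of 4 hours in 42.3% of cases when listed at 4 hours and in 42.7% when not, and GR in 12.1% and 6.61%. Over all day 1 peaks C/EBPbeta of 4 hours was at 38.0% and GR at 8.97%. The listed peaks were wider, with medians of 464 bp against 400 bp for closed and 611 bp against 452 bp for kept day 1 peaks. These ChIP-seq lists and the DHS list that splits the peaks are also of the same time. New peaks not listed at 4 hours (n = 4470) held PPARgamma of day 2 in 15.7% and C/EBPbeta of day 2 in 41.7%, and new peaks that had been listed at 4 hours (n = 1056) in 4.55% and 30.0%. Over all day 2 peaks these factors were at 9.42% and 35.7%. Median width was 494.5 bp for the new peaks not listed at 4 hours and 517 bp for those listed. The 345 new peaks that stayed in the list on day 6 held PPARgamma of day 6 in 66.1% (60.8 to 71.1) and of day 2 in 36.5% of cases, against 15.4% and 12.0% of the 5181 that did not. Their median width was 584 bp against 493 bp. PPARgamma of day 6 is of the same day as the DHS list used for this split.

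Single regions show the classes. Positions are on build mm9, counted from 1, and no gene annotation of that build was used here. The widest closed peak, chr6:84195989-84197505 (1517 bp), held C/EBPbeta at all 4 times, C/EBPdelta at both and GR, was in the DHS lists of day 0, 2 hours and 4 hours, and was not in that of day 6. The next, chr15:101932124-101933535 (1412 bp), held GR and was in the DHS list of 4 hours but none of the other lists. The third, on chromosome 18 (1408 bp), held GR and C/EBPbeta at day 0, 2 hours and 4 hours, but not on day 2. None of these 3 held PPARgamma.

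The closed peak with the most other lists, chr13:13099766-13100212 (447 bp), held 12 of 17: all C/EBP lists, GR, Stat5a, RXR, PPARgamma on both days and RNA polymerase II at 4 hours. It was in no DHS list but that of day 1. Next came chr6:118933994-118934891 and chr10:37346433-37347286 with 11 lists each, both with GR, Stat5a, RXR and all C/EBP lists and without PPARgamma.

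Among new peaks, the widest were chr10:23500167-23504706 (4540 bp), chr6:51406419-51410730 (4312 bp) and chr19:21356929-21359608 (2680 bp). Each held RNA polymerase II of day 0 and no PPARgamma, and the first 2 had been in the DHS list of 4 hours. The new peaks with the most other lists were chr8:26825602-26826244 (643 bp) and chr10:18880970-18881496 (527 bp), with 12 each, and chr5:32711904-32712674 (771 bp) with 11. All 3 held C/EBPbeta at each of its 4 times, GR, Stat5a, RXR and PPARgamma on both days. The chromosome 5 peak was in no other DHS list, and the first 2 had been listed at 4 hours and were missing on day 1.

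The widest kept regions were chr17:39979767-39985835 (6069 bp), chr9:78320463-78326071 (5609 bp) and chr15:61814637-61819854 (5218 bp). In the last, 1 day 2 peak spans 7 day 1 peaks. The chromosome 17 region was in every other DHS list, and the widest peak of each DHS list measured from 5962 to 6129 bp. Whether such wide regions also gather reads in the input sample was not tested. Among kept regions, chr6:138088431-138090763 (2333 bp) and chr6:52110530-52111582 (1053 bp) held a peak of all 17 other lists, and chr10:117145093-117149520 (4428 bp) of 16, all but RXR. The median number of other lists was 5 for kept regions, 1 for closed and 2 for new peaks. Kept regions were merged from peaks of both days, while closed and new ones were single, narrower peaks. Kept regions thus had more room to overlap a list.

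By chromosome, the share of day 1 peaks that closed was highest on chromosome 12 (47.8%, 45.1 to 50.6, n = 1344) and lowest on chromosome 17 (36.7%, 34.2 to 39.2, n = 1445), around 43.0% overall. The share of day 2 peaks that were new was highest on chromosome 1 (24.9%, 22.9 to 27.1) and lowest on chromosome 17 (16.8%, 14.6 to 19.2). Peaks of a chromosome are neighbours of each other, so these intervals are too narrow.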

How the data were processed

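The authors deposited 1 peak list per sample with chromosome, start and end. Peaks lie on mm9, per the submitters' processing notes. The peak caller, threshold, read depth and any pooling are not given in the sources used here, so the depth is unknown, and the files hold no score or count. The number and width of peaks called moves with depth and threshold, which limits every comparison of list lengths.

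Peaks were intersected with Python 3.11.15, NumPy 2.4.6 and SciPy 1.17.1 (figures with Matplotlib 3.10.9) at a minimum overlap of 1 bp. Recounting with bedtools gave the same 20161 and 19571 kept peaks. The counting was also tested on simulated lists with planted kept, closed and new peaks.

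There is 1 library per group, so no test was made. The members and lists were chosen with earlier results of these data known. Named regions are the 3 widest of each class and the 3 that hold the most other lists, with the chromosomes of highest and lowest share. Alternatives were an overlap of 50% of the shorter peak, peaks of 200 bp, equal list length by width, wider peaks only, no peaks under 251 bp, and the middle 200 bp of the DHS peak. The input sample was not analysed here, and neither were sequences or genes, for want of an mm9 genome.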

Additional observations from a re-analysis of the deposited data

How the results depend on the processing

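With 1 library per time, no value here carries a replicate error, and width stood in for peak strength because the lists hold no score. No paired analysis was possible because each group held 1 sample and no test was made. Of 56 alternative values, 22 stayed within the tolerance (1.5 times for counts, the 95% interval for shares and differences), 34 moved beyond it, and none of the 32 differences between new and closed peaks changed sign. Closed and new peaks numbered 8118 and 8364 at equal list length and 7841 and 2924 with wider peaks only, both of which leave fewer peaks. In both settings the classes were remade from the shortened lists, so a peak whose partner was left out counts as closed or new. The share of day 1 peaks kept was 56.4% at 50% overlap, 50.9% at 200 bp, 67.7% at equal length, 55.7% with wider peaks, 58.4% without short peaks and 59.1% with a gap of up to 500 bp. The share of day 2 peaks already open was 71.7% at 200 bp, 66.7% at equal length, 76.8% with wider peaks, 76.9% without short peaks and 81.8% with the gap. New minus closed, in points, for C/EBPbeta of 4 hours, C/EBPbeta of day 2, PPARgamma of day 2 and PPARgamma of day 6 in turn, was -8.37, 20.9, 10.9 and 14.4 at equal length, -2.53, 29.1, 19.4 and 22.7 with wider peaks, -4.04, 29.4, 14.7 and 19.2 with the gap, and -8.48, 20.7, 10.7 and 14.3 at equal length in the middle 200 bp. At 200 bp the last 3 were 18.3, 9.42 and 12.0. The gap and the last combination were chosen after seeing the data. Beyond fewer peaks in some settings, the cause of these moves was not tested.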

Other observations

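Closed peaks had closed neighbours somewhat more often than the list as a whole would give. The next day 1 peak along the chromosome was also closed for 49.5% (48.7 to 50.3) of 15222 closed peaks, where 43.0% of all day 1 peaks were closed. For new peaks the share was 25.6% (24.5 to 26.8) of 5524, where 22.0% of day 2 peaks were new. Neighbours share their surroundings, so these intervals are too narrow.

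The longest runs were looked up after these values were seen. The longest run of new peaks, 10 day 2 peaks in 70.7 kb at chr3:10013908-10084567, lay in a span with no day 1 peak. Of its peaks, 5 held C/EBPbeta of day 2, 1 held C/EBPbeta of 4 hours, 2 held PPARgamma of day 2 and 3 that of day 6, and none was in another DHS list. A run of 8 new peaks in 9.43 kb at chr2:162758203-162767631 had 1 peak with C/EBPbeta of 4 hours, 1 with that of day 2 and none with PPARgamma. A run of 7 in 13.1 kb at chr2:167515046-167528165 had 3 peaks with PPARgamma of day 2 and 4 with that of day 6. It held no C/EBPbeta of 4 hours or day 2, and 4 of its peaks had been in the DHS list of 4 hours. Over all new peaks C/EBPbeta was at 26.7% (4 hours) and 39.5% (day 2), and PPARgamma at 13.6% (day 2) and 18.6% (day 6). The longest run of closed peaks, 23 day 1 peaks over 1361 kb at chr15:73366003-74727108, lay in a span with no day 2 peak. Of these 23, 9 had been listed at 4 hours, where 52.2% of all closed peaks were. None held PPARgamma of day 2 or day 6. Over all closed peaks these shares were 0.552% and 1.50%, so none among 23 does not set the run apart. The next closed runs, of 16 and 14 peaks, had 2 and 1 day 2 peaks in their spans. The run of 14 held 1 peak with PPARgamma of day 2 and 1 with that of day 6.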
